A study of Homo sapiens with 5 samples.

Results

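The mitochondrial iron importers and the core machinery that builds iron-sulfur clusters were examined in HEK293T, a cell line made from human embryonic kidney, after ascorbic acid (vitamin C). There were 9 genes, chosen by symbol from the 28278 gene rows of the count table: the mitoferrins SLC25A28 and SLC25A37, the assembly genes ISCU, NFS1, LYRM4, HSCB and GLRX5, the ferredoxin FDX1 and its reductase FDXR. RNA-seq libraries of bead-captured mRNA numbered 2 from cells labelled as ascorbic acid treatment and 3 from control cells labelled WT. All cells were grown in DMEM with serum and seeded for 24 h. Treatment lasted a further 24 h for a DNA methylation test or 36 h for an RNA methylation test, and the labels do not say which applied here. Medium was renewed every 6 h, and the dose is not given in the sources used here. Whether libraries of a group derive from different cultures is not stated, and p-values therefore reflect variation among these libraries that could be purely technical.

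Iron enters the mitochondrial matrix through mitoferrins, carriers of the inner membrane. There the cysteine desulfurase NFS1, held stable by LYRM4, delivers sulfur to the scaffold protein ISCU, on which iron and sulfur are joined with electrons passed from NADPH through ferredoxin reductase and a ferredoxin. The co-chaperone HSCB and the glutaredoxin GLRX5 then hand the cluster on to respiratory chain subunits, aconitases, lipoic acid synthase, and DNA repair and replication enzymes. Ascorbic acid keeps iron in the ferrous form, the form that mitoferrins carry and that assembly uses.

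The libraries held 48015766 and 41739602 gene counts with ascorbic acid and 57212071, 38229722 and 35106664 in controls. Small counts were mostly even numbers (71.3 to 75.9% of the counts from 1 to 10), so a count may not equal 1 fragment and counting error may exceed what the count implies. The vimentin gene VIM and the neurofilament genes NEFM and NEFL, which HEK293 lines are known to express, were present. NEFM itself was higher after treatment, at 30.3 and 27.7 CPM with ascorbic acid and 17.0 to 17.6 CPM in controls, and its part in other differences was not tested. The kidney transcription factor genes PAX2 and LHX1 were below 1 CPM in every library. None of 10 markers of blood, liver, fibroblast and keratinocyte cells passed the filter on low counts, and their summed counts were 16 to 21 with ascorbic acid and 7 to 20 in controls. Levels are given as CPM, the count scaled to the size of its library after TMM scaling. In RNA from whole cultures, a lower level per cell and fewer cells carrying the transcript cannot be told apart.

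Ascorbic acid was followed by opposite differences in the mitoferrins, while none of the 7 assembly and electron transfer genes passed the test. Of the 9 genes, all of which passed the filter on low counts, SLC25A28 rose, SLC25A37 fell and 7 were not past the threshold, an adjusted p of 0.05 by the quasi-likelihood test of edgeR. Over all 15271 tested genes 14.3% passed, 8.53% higher (1303 genes) and 5.76% lower (879 genes). Scaled by library totals alone, 1712 genes were higher and 389 lower. The median log2 fold change was -0.04 over the 9 genes and 0.00 over all tested genes. With 2 called of 9, one in each direction, the genes did not move together.

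SLC25A28 encodes mitoferrin-2, the mitoferrin found in most tissues (chromosome 10, 99610522 to 99620609, minus strand, GRCh38). Its level was 34.4 and 35.0 CPM in the ascorbic acid libraries, against 23.1, 23.3 and 23.7 CPM in the control libraries. Both treated libraries stood above every control, and the gap between the groups was many times the spread within either. The group means were 34.7 ± 0.452 CPM (SD, n = 2) with ascorbic acid and 23.3 ± 0.289 CPM (SD, n = 3) in controls. That is a fold of 1.49 (95% interval 1.35 to 1.63), or 0.57 ± 0.07 on the log2 scale (edgeR adjusted p = 6.22e-07). By p-value the gene ranked 41 of the 15271 tested. This call was made in all 15 alternative fits, including the test against a fold of 1.2 (adjusted p = 0.0011).

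The 250 bases before the RefSeq start of SLC25A28 are shown because this is the gene of the set with the largest difference (GRCh38.p14, chr10:99620440-99620689, minus strand, written 5′ to 3′). Capitals mark exact matches to the CCAAT box, searched as CCAAT on both strands.
SLC25A28: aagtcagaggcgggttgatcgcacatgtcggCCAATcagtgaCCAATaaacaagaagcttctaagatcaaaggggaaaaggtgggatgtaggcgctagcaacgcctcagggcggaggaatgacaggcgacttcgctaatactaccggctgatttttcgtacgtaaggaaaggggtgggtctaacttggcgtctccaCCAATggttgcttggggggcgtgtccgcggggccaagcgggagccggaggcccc
The stretch held 3 CCAAT matches, with their first bases at -219, -208 and -54 from the RefSeq start. The gene position given above, from another annotation, starts further upstream, at 99620609 on the minus strand, which lies inside the stretch. By that annotation the match at -54 lies within the gene, and those at -219 and -208 lie before it. At least 1 match is found in 33.0% of 27305 promoter stretches of the same length, and 3 or more in 3.09%. The antioxidant response element core TGACNNNGC, held by 11.0% of all stretches, had no match here on either strand. Neither did the E-box CACGTG (6.49% of stretches) or the palindrome bound by nuclear respiratory factor 1 (1.13%). GLRX5 with 5 CCAAT matches and HSCB with 3 did not pass the test. The stretch held 17 CpG sites, where the median of all stretches is 11.

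SLC25A37 encodes mitoferrin-1, known best for supplying iron for heme in developing red cells (chromosome 8, 23528805 to 23575463, plus strand). Its level was 25.7 and 25.1 CPM with ascorbic acid, against 30.3, 31.9 and 31.6 CPM in controls. Here both treated libraries were below every control library. The means were 25.4 ± 0.453 CPM (SD, n = 2) with ascorbic acid and 31.3 ± 0.841 CPM (SD, n = 3) in controls, a fold of 0.813 (95% interval 0.738 to 0.895). On the log2 scale SLC25A37 fell by 0.30 ± 0.07 (edgeR adjusted p = 0.00332). This call was made in 14 of 15 alternatives and ended when the test was against a fold of 1.2 (adjusted p = 1).

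The balance of the mitoferrin transcripts lay further towards SLC25A28 with ascorbic acid than in controls. The log2 ratio of SLC25A28 to SLC25A37 counts, in which library size cancels, was 0.42 and 0.48 with ascorbic acid and -0.39, -0.46 and -0.42 in controls. SLC25A28 had more counts than SLC25A37 in both treated libraries and fewer in all 3 controls, on a count scale that does not allow for their different lengths. The means differed by 0.87, with an SD of 0.04 (n = 2) with ascorbic acid and 0.03 (n = 3) in controls. The exact two-sided permutation p, taken as 2 times the smaller one-sided p, was 0.2. That is the smallest this form of the test can give with the 10 groupings of 2 against 3 libraries. Leaving out each library in turn gave 0.84 to 0.90.

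**Figure D1:**
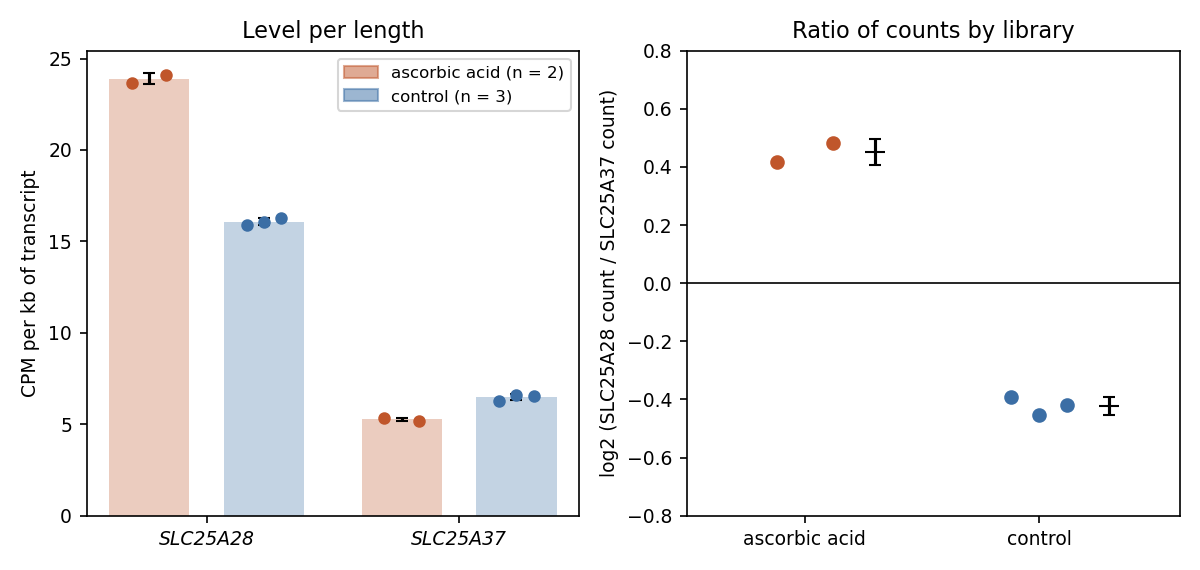
Mitoferrin transcripts by library. Left, level in CPM per kilobase of transcript, with bars for means, error bars for SD and points for libraries; right, log2 ratio of SLC25A28 to SLC25A37 counts, with points for libraries and mean ± SD beside them. Ascorbic acid libraries had ratios of 0.42 and 0.48, and control libraries -0.39 to -0.46.

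The longest annotated coding transcript of SLC25A28 is much shorter than that of SLC25A37, so the genes can be compared in level only per length. Per kilobase of the longest coding transcript (1451 and 4823 bases in GENCODE 29), SLC25A28 had 23.9 ± 0.311 CPM per kb with ascorbic acid and 16.1 ± 0.199 in controls. SLC25A37 had 5.26 ± 0.0938 CPM per kb with ascorbic acid and 6.49 ± 0.174 in controls (SD, n = 2 and n = 3). Scaled to that length, SLC25A28 was the main mitoferrin transcript in both groups. Its share of the summed level per kb was 81.6 and 82.3% with ascorbic acid and 70.8 to 71.7% in controls. The sum of both was 29.2 ± 0.218 CPM per kb with ascorbic acid (SD, n = 2) and 22.6 ± 0.336 in controls (SD, n = 3), a ratio of 1.29 (exact two-sided permutation p = 0.2). With the merged exon length of each gene in place of the transcript, that ratio was 1.33. The longest identical run of their transcripts was 16 bases.

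Among the scaffold and sulfur donor genes no call was made. ISCU, the scaffold (chromosome 12, 108562582 to 108569384, plus strand), had 58.9 and 56.6 CPM with ascorbic acid and 54.9, 51.0 and 51.6 CPM in controls. The groups did not overlap, but the nearest libraries were close. Its log2 fold change was 0.13 ± 0.06, with an unadjusted 95% interval of 0.02 to 0.25 (edgeR adjusted p = 0.113). Scaled by library totals it passed (0.18, adjusted p = 0.0355), so the ISCU call depended on the scaling, and 3 of the 9 genes were called in that setting.

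The promoter stretch of ISCU is shown because it is the only one of the 8 stretches matched to these genes, SLC25A37 not being among them, that holds the antioxidant response element core (GRCh38.p14, chr12:108562346-108562595, plus strand, 5′ to 3′). Capitals mark the match to TGACNNNGC, which lies on the opposite strand.
ISCU: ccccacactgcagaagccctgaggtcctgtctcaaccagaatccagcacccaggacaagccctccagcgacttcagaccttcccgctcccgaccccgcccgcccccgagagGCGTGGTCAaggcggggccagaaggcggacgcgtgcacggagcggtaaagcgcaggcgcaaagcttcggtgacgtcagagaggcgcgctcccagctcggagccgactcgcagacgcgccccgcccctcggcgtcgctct
The match began at -139 from the RefSeq start, and the stretch held 28 CpG sites. A match of letters is a description and does not show that a factor binds there.

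NFS1, the cysteine desulfurase (chromosome 20, 35668055 to 35699359, minus strand), had 49.6 and 47.0 CPM with ascorbic acid and 44.6, 42.1 and 46.5 CPM in controls. The lower treated library and the highest control were 47.0 and 46.5 CPM, so the groups barely separated. Its log2 fold change was 0.12 ± 0.06 (edgeR adjusted p = 0.184). LYRM4, the small partner that stabilises NFS1 (chromosome 6, 5102593 to 5260939, minus strand), had 36.2 and 33.2 CPM with ascorbic acid, against 37.5, 39.4 and 36.5 CPM in controls. It lay lower in both treated libraries, with a log2 fold change of -0.12 ± 0.07 (adjusted p = 0.219). The 95% intervals were -0.0013 to 0.25 for NFS1 and -0.26 to 0.01 for LYRM4, which leave room for differences of up to about 1.19-fold for NFS1 and down to 0.836-fold for LYRM4. Of the NFS1 exon bases, 1.46% overlap ROMO1 on the opposite strand and 4.8% overlap AL109827.1 on the same strand. ISCU and FDX1 have processed pseudogenes annotated under their names, none of which has a row in the count table. Reads matching both copies could make the levels of ISCU and FDX1 uncertain, which was not tested.

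The transfer genes lay close to their controls. HSCB, the co-chaperone that docks ISCU to the mitochondrial heat shock protein HSPA9 (chromosome 22, 28742031 to 28757515, plus strand), had 13.7 and 14.3 CPM with ascorbic acid and 14.9, 13.8 and 15.6 CPM in controls. GLRX5, the glutaredoxin that carries clusters onward (chromosome 14, 95533503 to 95544724, plus strand), had 91.8 and 83.0 CPM with ascorbic acid and 91.0, 93.5 and 88.8 CPM in controls. For both genes the groups overlapped, and for GLRX5 the treated libraries differed from each other more than the groups did. Their log2 fold changes were -0.08 ± 0.09 for HSCB and -0.06 ± 0.05 for GLRX5 (edgeR adjusted p = 0.586 and 0.503). In GENCODE 29, 20.6% of the HSCB exon bases overlap CHEK2 and 13.7% of those of GLRX5 overlap SNHG10, both on the opposite strand. Whether counting used strand is not given in the sources used here. Without strand, reads of HSCB and GLRX5 from these overlaps could not be told apart from those of the partner gene.

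The electron transfer genes lay closer still to their controls. FDX1, a ferredoxin that serves mitochondrial cytochromes P450 (chromosome 11, 110429883 to 110464881, plus strand), had 48.0 and 48.8 CPM with ascorbic acid. In controls it had 50.8, 49.2 and 48.9 CPM. The treated libraries sat just under the lowest control, with a log2 fold change of -0.04 ± 0.06 and an interval of -0.16 to 0.08 (edgeR adjusted p = 0.720). FDXR, the NADPH-dependent reductase of ferredoxins (chromosome 17, 74862497 to 74873031, minus strand), had 19.7 and 16.7 CPM with ascorbic acid and 18.0, 17.4 and 19.4 CPM in controls. One treated library was above and the other below all controls, and the log2 fold change was 0.00 ± 0.08 (adjusted p = 0.989). Its interval of -0.18 to 0.17 still allows a fold of 0.886 to 1.12. FDX2, another ferredoxin gene, was named after its values were seen and is counted below among the other mitochondrial assembly genes. It had 20.7 and 18.4 CPM with ascorbic acid and 18.7, 19.2 and 21.1 CPM in controls. The groups overlapped, and FDX2 was not called (0.00 ± 0.08 on the log2 scale, edgeR adjusted p = 0.996).

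**Figure D2:**
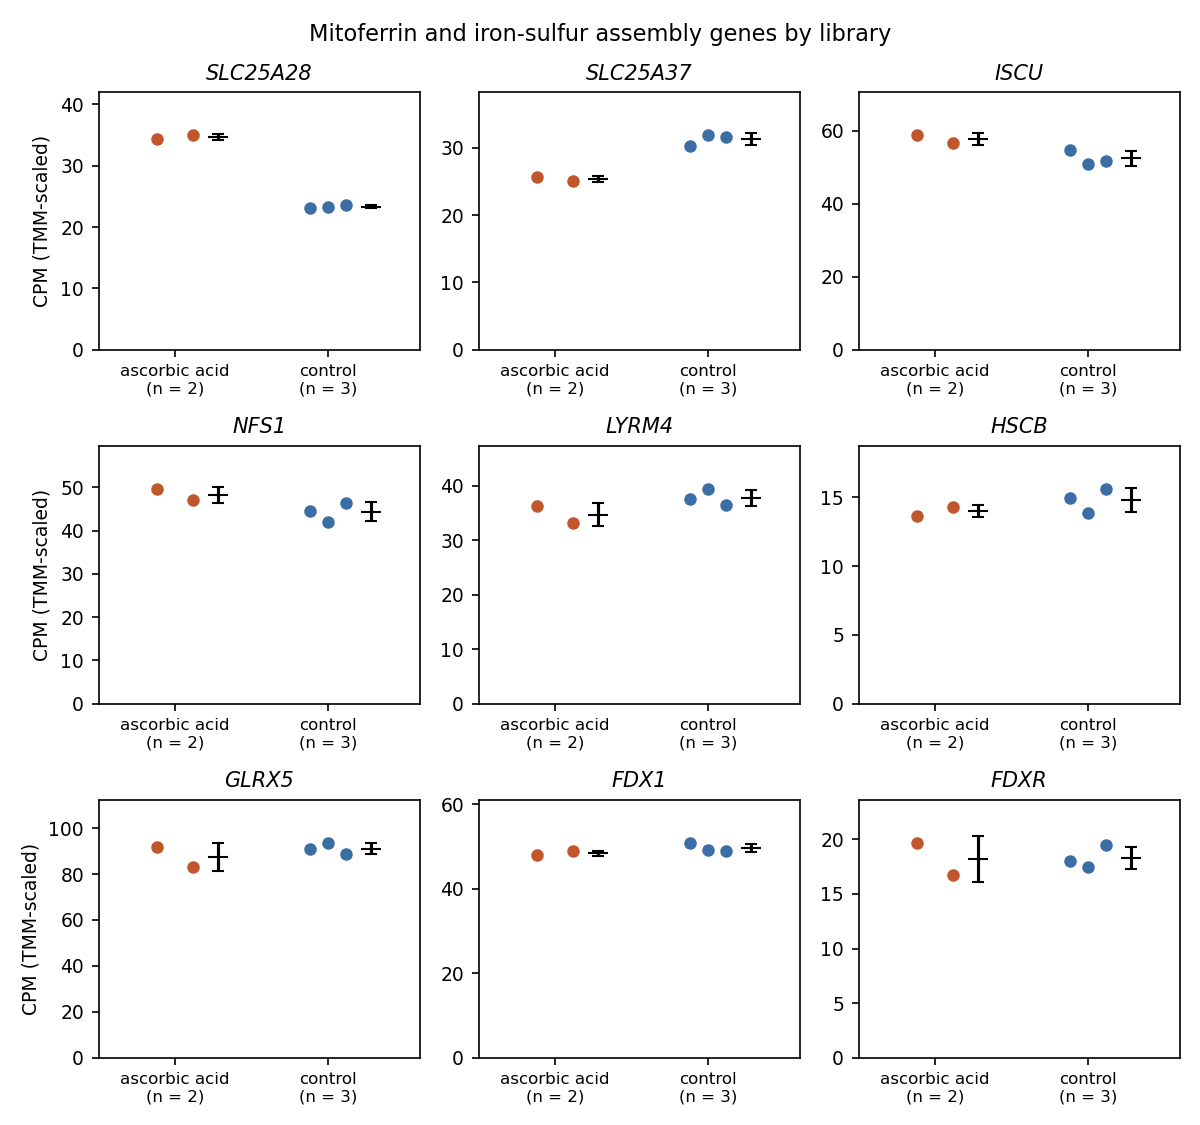
Level of each of the 9 genes in CPM, one panel per gene with its own axis from 0. Points are libraries, with 2 for ascorbic acid on the left and 3 controls on the right, and black bars are mean ± SD; only SLC25A28 and SLC25A37 show gaps between groups that are large beside the spread within them.

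In 6 of the 9 genes the groups did not overlap: SLC25A28, ISCU and NFS1 were higher in both treated libraries than in every control, and SLC25A37, LYRM4 and FDX1 lower. Over all tested genes the groups did not overlap in 43.1%, 22.6% higher and 20.4% lower, so separation alone was common in these libraries. ISCU, NFS1 and LYRM4, whose products sit together in the assembly complex, did not share a sign: ISCU and NFS1 had positive fold changes and LYRM4 a negative one, and none passed.

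**Figure D3:**
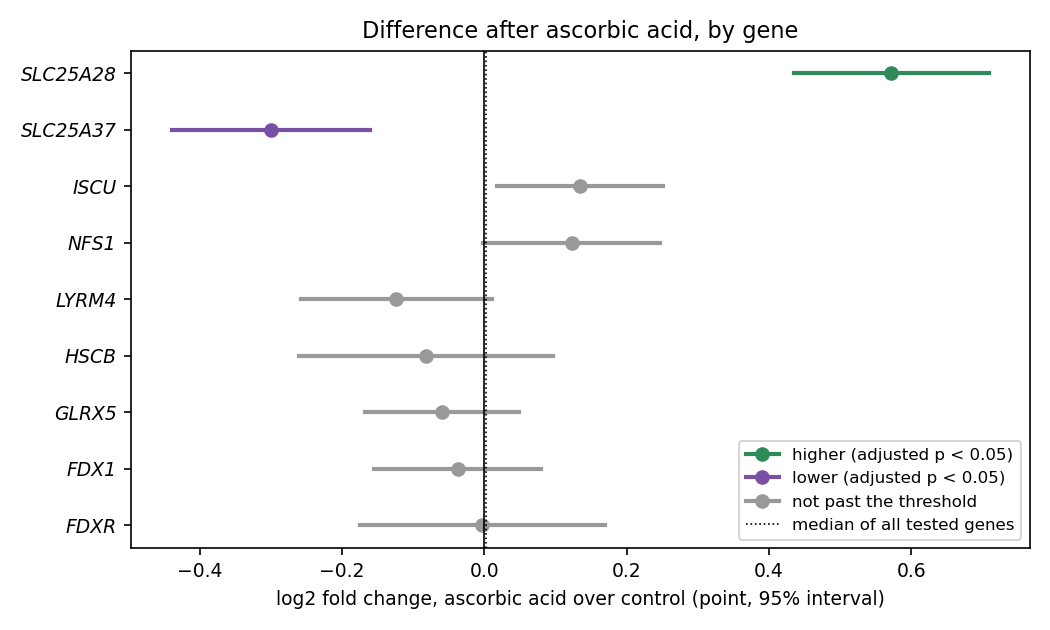
Log2 fold change of each gene, ascorbic acid over control (points), with unadjusted 95% intervals (lines). SLC25A28 lies at 0.57 and SLC25A37 at -0.30, while the other 7 lie between -0.12 and 0.13; the dotted line is the median of all tested genes.

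By level per kilobase of transcript, GLRX5 stood first in both groups, at 46.9 CPM per kb with ascorbic acid and 48.9 in controls. ISCU came next, at 43.4 CPM per kb with ascorbic acid and 39.5 in controls. SLC25A28 was the third in both, at 23.9 with NFS1 next at 16.0 in the ascorbic acid group, and at 16.1 with FDX1 next at 15.5 in controls. In controls the ranges of FDX1 and NFS1, and of NFS1 and HSCB, overlapped, so those neighbours do not differ beyond their spread. FDXR, SLC25A37 and LYRM4 closed the order in both groups, with LYRM4 at 4.74 CPM per kb with ascorbic acid and 5.17 in controls. The order depends on the length used: per kilobase of merged exons, SLC25A28 (19.8 with ascorbic acid, 13.3 in controls) stood above ISCU (13.0 with ascorbic acid, 11.8 in controls). On that scale FDX1 (15.1 with ascorbic acid, 15.5 in controls) was above ISCU in both groups and above SLC25A28 in controls. LYRM4 (3.67 with ascorbic acid, 4.0 in controls) then had a higher mean than SLC25A37 (3.12 with ascorbic acid, 3.84 in controls). In controls the ranges of LYRM4 and SLC25A37 overlapped on that scale (SD 0.155 and 0.103), so they do not differ there beyond their spread.

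The genes whose profiles over the 5 libraries were most like that of SLC25A28 were sought among 10465 tested genes averaging 5 CPM or more, by the root-mean-square distance of log2 CPM centred on each gene's mean. TRIM14 was closest (distance 0.0119, log2 fold change 0.57 ± 0.06), before the small GTPase gene RHOB (0.0139, 0.55 ± 0.05) and the signalling adaptor gene TRAF5 (0.0149, 0.60 ± 0.08). For SLC25A37 they were JCAD (0.0165, -0.28 ± 0.07), the zinc finger gene ZNF772 (0.0186, -0.29 ± 0.07) and the transcription factor gene TFAP2A (0.0195, -0.32 ± 0.06). Their fold changes follow from the way they were chosen and are given as a description, with no test.

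The rest of the iron-sulfur pathway was described with 5 lists of 68 genes, of which 63 passed the filter. Of these, 2 rose, 4 fell and 57 were not called, which is 9.52% called where 14.3% of all tested genes were. Their median log2 fold change was -0.01. The count was 3 without control replicate 1 and 11 without control replicate 3, so it depended on which controls were used.

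Among 12 other mitochondrial assembly genes, 1 fell, 0 rose and 11 were not called (median log2 fold change 0.01), and 0 to 2 were called with 1 library left out. The one that fell was NDUFAB1, the acyl carrier protein that also binds LYRM4 in the assembly complex. It had 78.6 and 68.0 CPM with ascorbic acid, against 86.5, 85.1 and 84.7 CPM in controls, which is -0.22 ± 0.06 on the log2 scale (adjusted p by edgeR = 0.0089). That call ended without ascorbic acid replicate 2 (-0.13, adjusted p = 0.174) and without control replicate 1 (-0.20, 0.0597). Both treated libraries were below every control.

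Among the 10 tested cytosolic assembly genes, 1 fell, 0 rose and 9 were not called (median log2 fold change 0.00), and 0 to 2 were called with 1 library left out. CIAPIN1, the electron carrier of cytosolic assembly, had 89.2 and 84.7 CPM with ascorbic acid, against 98.5, 95.7 and 97.9 CPM in controls. Its log2 fold change of -0.16 ± 0.05 was just past the threshold (edgeR adjusted p = 0.0281). It was no longer called without ascorbic acid replicate 2 or without any 1 of the 3 controls (-0.17 to -0.13, adjusted p = 0.0529 to 0.136), nor with library totals, the 5 CPM filter or cyclic loess scaling (-0.14 to -0.12). BOLA2, which has a near-identical copy, was listed at 0 in all 5 libraries and was not tested.

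Of 17 genes listed as mitochondrial iron-sulfur proteins, 1 rose, 0 fell and 16 were not called (median log2 fold change -0.03). With 1 library left out, 0 to 2 were called. The list includes CISD1 and CISD2 and was not limited to proteins that receive their cluster inside mitochondria. CISD3, a small mitochondrial protein with a pair of clusters, had 11.3 and 10.8 CPM with ascorbic acid, against 8.42, 7.84 and 8.98 CPM in controls. All treated values were above all controls, and the log2 fold change was 0.39 ± 0.10 (edgeR adjusted p = 0.00882). Without ascorbic acid replicate 1 the CISD3 call ended (0.36, adjusted p = 0.0804).

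Of 20 tested cytosolic and nuclear iron-sulfur proteins 1 rose, 2 fell and 17 were not called (median log2 fold change -0.04). With 1 library left out, 2 to 6 were called, the 6 without control replicate 3. NTHL1, a DNA glycosylase of base excision repair, had 37.7 and 35.5 CPM with ascorbic acid and 26.2, 28.2 and 30.9 CPM in controls (0.37 ± 0.07, edgeR adjusted p = 0.000606). ACO1, cytosolic aconitase and iron regulatory protein 1, had 69.2 and 66.4 CPM with ascorbic acid and 80.1, 77.9 and 80.5 CPM in controls (-0.23 ± 0.05, adjusted p = 0.00353). Neither gene's groups overlapped, and no left-out library ended either call. For NTHL1 the gap between the nearest libraries was about as wide as the range of the controls. TYW1, which modifies phenylalanine transfer RNA, had 39.9 and 38.4 CPM with ascorbic acid and 46.3, 44.7 and 42.1 CPM in controls (-0.18 ± 0.06, adjusted p = 0.0482). The TYW1 call ended without either ascorbic acid replicate and without control replicate 1 or 2 (-0.21 to -0.14, adjusted p = 0.0708 to 0.217). It also ended in DESeq2, with cyclic loess, the 5 CPM filter, upper-quartile factors or library totals (-0.19 to -0.14, 0.0623 to 0.144).

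Of the ferredoxin partners, 4 of 7 were expressed enough to test and none was called by edgeR, although 1 was called without control replicate 3. CYP27A1, a sterol hydroxylase gene named after its values were seen, had the largest fold change of the 4 and the only unadjusted p under 0.05. It had 1.42 and 1.05 CPM with ascorbic acid and 0.76, 0.50 and 1.07 CPM in controls, so the groups overlapped at a low level (0.69 ± 0.30 on the log2 scale, unadjusted p = 0.0318, adjusted p = 0.133). The heme A synthesis genes COX15 and COX10, the highest expressed of them, had log2 fold changes of -0.01 ± 0.05 and 0.00 ± 0.07. COX15 had 81.9 and 80.7 CPM with ascorbic acid and 87.0, 79.0 and 78.5 CPM in controls, and COX10 25.6 and 26.6 CPM with ascorbic acid and 27.3, 25.2 and 25.7 CPM in controls. The steroid enzyme genes CYP11A1 and CYP11B1 had at most 2 counts in any library. These are the adrenal partners of FDX1.

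**Figure D4:**
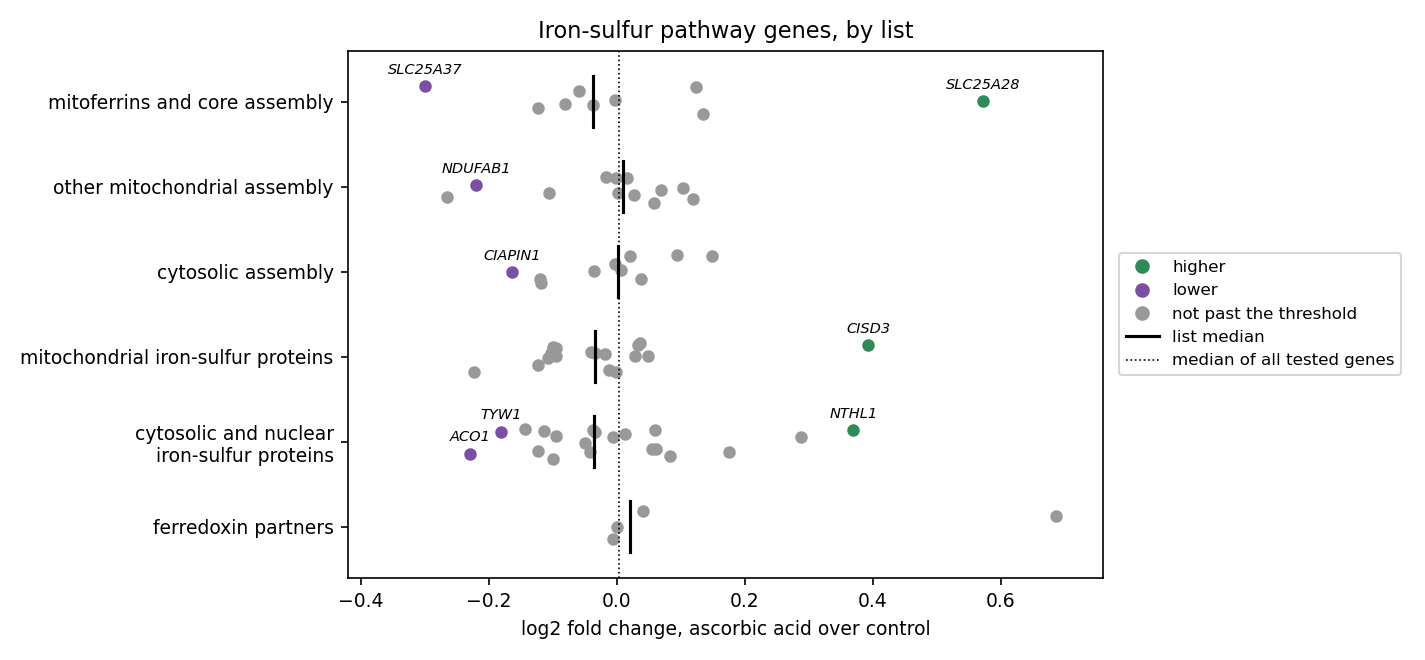
Log2 fold change of each tested gene (points), ascorbic acid over control, for the 9 genes and 5 lists of the pathway. Green points passed an adjusted p of 0.05 with higher levels and purple points with lower levels; thick lines are list medians, which lie between -0.04 and 0.02, and the dotted line is the median of all tested genes.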

How the data were processed

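The deposited table holds whole-number counts of reads per gene symbol, made by the authors, with no normalization. The submitters' processing notes name hg38 (GRCh38), STAR, Trimmomatic 0.39, DESeq2 and featureCounts. The sources used here do not state the annotation, the strandedness or the treatment of multimapping reads. Columns headed "vc" and "con" were assigned to ascorbic acid and control samples by name and number.

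After filterByExpr and TMM scaling (factors 0.984 to 1.03), all 5 libraries entered 1 quasi-likelihood fit (edgeR 4.0.16, R 4.3.3; robust glmQLFit and glmQLFTest, a two-sided test without covariates). P-values were adjusted by Benjamini-Hochberg over 15271 genes. Each standard error is the log2 fold change over the square root of F. The mitoferrin ratio (pseudocount 0.5) was tested by exact permutation in scipy 1.17.1. Fits were run on simulated counts with known fold changes and the same dispersion for every gene. The simulation had neither the excess of even counts nor differences in dispersion between genes, so it cannot show how the fits behave under those. Within groups, every pair of libraries exceeded counting noise (chi-square per degree of freedom 3.95 to 7.20), so none was merged.

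Positions and lengths came from GENCODE 29 (25558 of 28278 symbols matched), and promoter stretches from RefSeq tables on GRCh38.p14, in which 8 of the 9 genes were matched. The genes, lists and tests were chosen with earlier results of these data known. The genes named are the 9, up to 4 called genes of each pathway list (or its 2 highest expressed), and the 3 genes most like the member with the largest called rise and the one with the largest called fall. Alternatives were a test against a fold of 1.2, each library left out, a replicate block, 2 other filters (none, or 5 CPM in 2 libraries), scaling by upper quartile, library totals or DESeq2 size factors, DESeq2 1.42.0 itself, and limma 3.58.1 with voom or cyclic loess. Some results are not reported here.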

Additional observations from a re-analysis of the deposited data

How the results depend on the processing

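The SLC25A28 call was made in all 15 alternatives (log2 fold change 0.55 to 0.61). SLC25A37 kept its direction in all 15 (-0.32 to -0.26) and its call in all but the test against a fold of 1.2 (-0.30, adjusted p = 1), under which 1 of the 9 genes, 0 of the listed pathway genes and 286 genes in all (275 higher, 11 lower) were called. With library totals 3 of the 9 were called. Calls over all genes numbered 2182, 1447 with cyclic loess and 1180 to 2047 with 1 library left out, where a lone treated library was assumed to vary like the controls. DESeq2 called 804 genes higher and 899 lower, against 1303 and 879 in edgeR. Lower calls numbered 389 with library totals, 542 with the 5 CPM filter and 519 with cyclic loess. Without control replicate 1, 845 genes were higher and 335 lower. Higher calls numbered 790 without ascorbic acid replicate 1 and 837 without ascorbic acid replicate 2, and lower calls 535 without control replicate 2. Listed pathway genes called numbered 6, and 3 to 11 with 1 library left out. Genes at or near no change turned sign in some settings, with no call in any: GLRX5 without ascorbic acid replicate 2 (0.0038), and with library totals FDX1 (0.0051), FDXR (0.0393), COX15 (0.0369) and COX10 (0.0423). The same held with upper-quartile factors for FDXR (0.0135), COX15 (0.0105) and COX10 (0.0157), with the 5 CPM filter for FDXR (0.0221), COX15 (0.0193) and COX10 (0.0246), with cyclic loess for COX15 (0.0312) and with no filter for COX10 (0.00034). With 1 library left out, FDXR ran from -0.13 to 0.10, COX15 from -0.0319 to 0.0518, COX10 from -0.0331 to 0.0424 and GLRX5 from -0.14 to 0.0038. The cause of these shifts was not tested.

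Same-numbered libraries did not deviate together (correlation 0.0247 for replicate 1 and 0.0109 for replicate 2 over 15271 genes), so the numbers were not taken to pair the libraries. With the replicate block, in which control replicate 3 does not bear on the contrast, 1880 genes and 10 listed pathway genes (5 of them cytosolic or nuclear iron-sulfur proteins) were called, SLC25A28 had 0.58 and SLC25A37 -0.29, both still called, and FDXR had 0.0405. The mean of same-numbered pairs, an alternative chosen after seeing the data, gave a mitoferrin ratio difference of 0.87. With 2 treated libraries, the 95% intervals of the 7 genes that did not pass still span folds of 0.835 to 1.19.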

Other observations

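The mitoferrins belong to the SLC25 family of mitochondrial carriers, which was looked at after the values were seen. Of 48 listed family members, 43 were tested. Of these, 5 rose, 4 fell and 34 were not called, around a median log2 fold change of 0.02. Over all 15271 tested genes 14.3% were called, 8.53% higher and 5.76% lower, and the counts in the family include both mitoferrins. Within the family SLC25A28 was the third in order of fold change and SLC25A37 next to last. SLC25A3, the phosphate carrier and one of the most abundant members, rose by 0.25 ± 0.05 (edgeR adjusted p = 0.000296), with 647 CPM on average with ascorbic acid and 543 CPM in controls, and no left-out library ended that call. SLC25A45 (0.63 ± 0.19), SLC25A43 (0.59 ± 0.15) and SLC25A24, an ATP-Mg/phosphate carrier (0.19 ± 0.05), also rose. The citrate carrier gene SLC25A1 (-0.20 ± 0.05), the dicarboxylate carrier gene SLC25A10 (-0.20 ± 0.06) and the oxoglutarate carrier gene SLC25A11 (-0.16 ± 0.05) fell. Each of these 6 calls ended without ascorbic acid replicate 2 (adjusted p from 0.0615 for SLC25A11 to 0.155 for SLC25A45), and each but that of SLC25A43 also without at least 1 control. SLC25A39, which imports glutathione, had 0.09 ± 0.05 (adjusted p = 0.185), and SLC25A38, which imports glycine for heme synthesis, had -0.12 ± 0.05 (0.128).

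The tested genes next to each mitoferrin gene were also listed after the values were seen. None of the 3 nearest tested genes on either side of SLC25A28 was called, with log2 fold changes from -0.15 to 0.06. On one side lay HPS1 (1163.6 kb away), CNNM1 (216.2 kb) and GOT1 (179.0 kb). On the other lay ENTPD7 (38.9 kb), CUTC (81.9 kb) and COX15 (91.2 kb). Beside SLC25A37, R3HCC1, ENTPD4 and NEFL were not called. LOXL2, a lysyl oxidase gene 103.5 kb away, rose by 0.50 ± 0.11 (edgeR adjusted p = 0.00189), and NEFM, 1337.5 kb away, by 0.75 ± 0.07 (3.18e-08), both opposite in sign to SLC25A37. The LOXL2 call ended without ascorbic acid replicate 1 (0.38, adjusted p = 0.0793).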
